A study of Mus musculus with 11 samples.

Results

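The genes described here are 10 genes of endothelial junctions and the endothelial surface: Pecam1, Cdh5, Cldn5, Esam, Icam2, Emcn, Vwf, Mmrn2, Clec14a and Cd34. They were chosen by symbol, all 10 were found among the 23238 symbols of the series, and all 10 passed the filter on low values. Cldn5 passed it only through the 3 libraries in which it was high.

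Endothelial cells line blood vessels and are joined to each other by adherens junctions, built on VE-cadherin (Cdh5), and by tight junctions, in which claudin-5 (Cldn5) seals the gap between neighbours. Pecam1 (CD31), Esam and Icam2 are adhesion proteins that sit at or near these contacts and take part in the passage of leukocytes. Emcn and Cd34 are sialomucins of the cell surface, Clec14a is a C-type lectin that binds the matrix protein Mmrn2, and Vwf is the clotting factor that endothelial cells store in Weibel-Palade bodies. In the penis such cells line the blood spaces of the corpus cavernosum, and their loss is a feature of diabetic erectile dysfunction.

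Messenger RNA was sequenced from cultured cells that the labels name mouse cavernous endothelial cells, in 11 libraries. Cells taken from the corpus cavernosum were kept for 5 days in normal glucose (3 libraries), in high glucose (4 libraries), or in high glucose plus Hsp70, a heat shock chaperone protein (4 libraries). All groups grew in medium 199 with 20% fetal bovine serum and heparin at 0.5 mg/ml. The sources used here do not give the glucose concentrations, the form and dose of Hsp70, or the strain, age and number of mice. Whether replicates came from different cultures or mice is not stated either, so p-values cover the spread between these libraries only, which may be technical. A set number in each file name runs across the groups. All groups have a library in sets 3, 4 and 5, and set 2 lacks normal glucose. What a set stands for is not stated.

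Levels are log2(normalized count + 1) unless a sentence says otherwise. A library summed to between 24789387 and 27807569 normalized counts, and the read depth before normalization is unknown. The lowest count of a detected gene was 0.307 to 0.615 in set 3, 0.896 to 0.934 in set 2 and 1.00 to 1.11 in sets 4 and 5. Each library of sets 4 and 5 listed 2753 symbols at 0, against 4916 to 6010 in sets 2 and 3. Depth and processing may thus differ between sets, which was not tested. Libraries of set 3 stood apart from the others, and each result below is given by set. Markers of the labelled cell type differed among themselves in the 8 libraries outside set 3. Some were low there, such as the receptor gene Tie1 at 0 to 2.33 and the guidance receptor gene Robo4 at 0 to 1.70, and Cldn5 was not detected. Others were well expressed in the same 8 libraries, such as the co-receptor gene Eng at 11.01 to 11.49, Clec14a at 9.17 to 10.16 and the receptor gene Flt1 at 6.35 to 7.73. Fibroblast markers were high in every set: Dcn, a matrix gene, ran from 17.08 to 17.63 in set 3 and from 15.17 to 16.02 elsewhere, and Pdgfra, a growth factor receptor, from 14.98 to 15.41 and from 14.84 to 15.64.

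The promoters of 4 of the 10 genes were in the RefSeq table (build GRCm38.p6, the mm10 assembly), and 3 are shown because their genes behaved differently between the sets: Cldn5 and Emcn were higher in set 3, and Cd34 was not. Each line gives the 250 bases before the gene's start in RefSeq, 5′ to 3′ on the strand of the gene. By the GENCODE positions given below, the last bases of the Emcn, Cd34 and Clec14a windows lie inside the gene. The windows are chr16:18776597-18776846 (plus strand), chr3:137340828-137341077 (plus strand) and chr1:194938571-194938820 (plus strand) for Cldn5, Emcn and Cd34. Capitals mark matches, on either strand, to AGGAAG, a core bound by the ETS factors such as Erg and Fli1 that act in endothelial cells.
Cldn5: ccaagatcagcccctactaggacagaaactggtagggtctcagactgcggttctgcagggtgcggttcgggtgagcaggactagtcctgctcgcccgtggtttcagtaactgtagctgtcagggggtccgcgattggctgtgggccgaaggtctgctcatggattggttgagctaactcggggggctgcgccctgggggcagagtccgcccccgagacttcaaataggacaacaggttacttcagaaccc
Emcn: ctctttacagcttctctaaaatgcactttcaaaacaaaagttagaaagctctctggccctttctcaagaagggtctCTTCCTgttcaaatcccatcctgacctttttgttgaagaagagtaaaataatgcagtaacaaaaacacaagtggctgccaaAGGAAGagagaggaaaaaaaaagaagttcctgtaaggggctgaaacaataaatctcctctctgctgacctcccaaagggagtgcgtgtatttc
Cd34: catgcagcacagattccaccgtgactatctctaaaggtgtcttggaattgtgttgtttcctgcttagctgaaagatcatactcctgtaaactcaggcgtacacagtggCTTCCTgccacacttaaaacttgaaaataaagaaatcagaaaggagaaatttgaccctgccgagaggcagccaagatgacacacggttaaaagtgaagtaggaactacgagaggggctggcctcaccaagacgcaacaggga
AGGAAG was found 2 times before Emcn, 174 and 93 bases ahead of its start, 1 time before Cd34, 142 bases ahead, and was absent from the windows before Cldn5 or Clec14a. Of 32851 promoters of the same length in the table, 29.5% held it. The related core CGGAAG, which shares GGAAG with AGGAAG but cannot match at the same place, was in none of the 4 windows and in 13.6% of all. The FOX core GTAAACA (3.17% of all promoters), the GATA core AGATAA (9.99%) and the SOX core ACAAAG (16.5%) matched in none of the 4. The KLF core CACCC (52% of all) matched 2 times before Cldn5 and 1 time before Clec14a. A match describes these letters and is not a bound site.

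**Figure D1:**
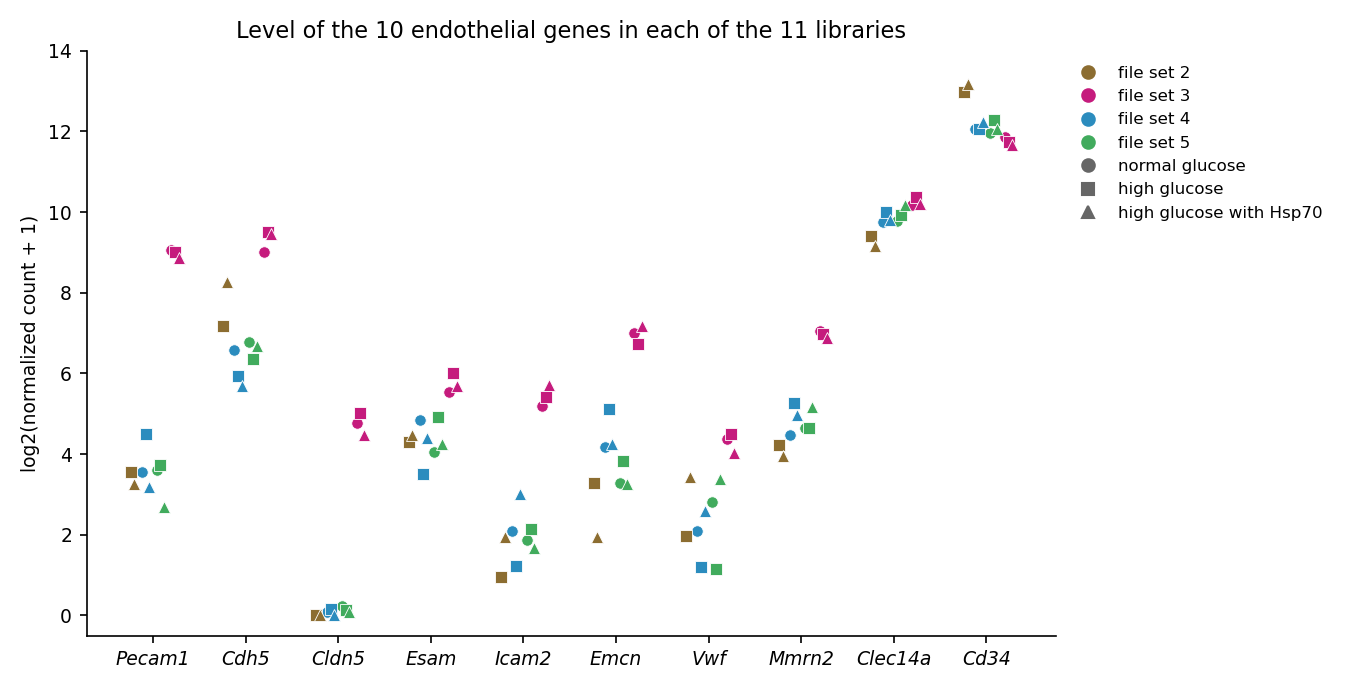
Level of each of the 10 genes in each of the 11 libraries, in log2(normalized count + 1). Colours give the file set and shapes the culture condition. The set 3 libraries lie above all others for 9 genes, by 0.02 for Clec14a and by 4.35 for Pecam1, and below all others for Cd34.

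The first comparison set the 3 libraries of set 3 against the other 8, with the culture condition as a term. Limma called 8 of the 10 genes higher in set 3: Pecam1, Cldn5, Icam2, Emcn, Cdh5, Mmrn2, Vwf and Esam, by 1.40 to 5.46 log2 units. Clec14a and Cd34 did not pass. Cldn5 met the filter on low values only through set 3, which fixed its direction in advance. Its call is therefore set apart, and the count to read is 7 of the other 9 genes. Of all 18248 genes tested, 8.42% were called, 6.04% higher in set 3 and 2.38% lower. Among the 17751 that met the filter outside set 3 alone, 5.37% were called higher. With the libraries centred on their medians the split over all genes was 975 higher and 640 lower, in place of 1102 and 435, and the same 8 genes passed. The median difference of the 10 genes, Cldn5 included, was 2.48, and that of all genes tested was -0.0049. The 3 libraries share 1 set, so the spread from set to set is not in these p-values, and the comparison was chosen with earlier results of these data known. In such bulk samples, fewer endothelial cells and less RNA per endothelial cell cannot be told apart.

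Of the junction proteins, Pecam1 (chromosome 11, 106654217 to 106750628, minus strand) stood at 9.07 in normal glucose, 9.01 in high glucose and 8.86 with Hsp70 in set 3. In the other 8 libraries it ran from 2.68 to 4.51, with a median of 3.56. Set 3 lay above all the others with no overlap, 462 to 537 normalized counts against 5.41 to 21.7, and the difference was 5.46 (SE 0.287, adjusted p = 1.22e-06, limma).

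Cdh5 (chromosome 8, 104101625 to 104144511, plus strand), the adherens junction cadherin, read 9.01, 9.52 and 9.45 in normal glucose, high glucose and Hsp70 of set 3. Elsewhere it ran from 5.68 to 8.26, with a median of 6.63, so it was well detected in every library. The highest of those 8 was the Hsp70 library of set 2, which was 0.75 below the lowest of set 3. The difference was 2.66 (SE 0.450, adjusted p = 0.0032, limma), and 1.77 in sets 2 and 3 alone. An antisense gene, Gm29682, lies within Cdh5 but shares no exon bases with it.

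Cldn5 (chromosome 16, 18776847 to 18778262, plus strand, 1 exon), the tight junction claudin, read 4.76, 5.01 and 4.49 in normal glucose, high glucose and Hsp70 of set 3, or 21.4 to 31.2 normalized counts. It was not detected in any of the other 8 libraries. The 2 libraries of set 2 listed it at 0, and those of sets 4 and 5 at 0.0041 to 0.18 normalized counts. That is under the lowest count of a detected gene in those sets, 1.00, and no gene there held a count between 0.384 and 1.00. Against a floor of 3 counts per library, the mean of set 3 (26.3) was at least 8.75-fold higher. Its fitted difference (4.66, SE 0.372, adjusted p = 1.23e-05, limma) adds nothing to these counts.

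Esam (chromosome 9, 37528078 to 37538319, plus strand), an immunoglobulin-type adhesion protein of tight junctions, read 5.54, 6.0 and 5.69 in normal glucose, high glucose and Hsp70 of set 3, and 3.51 to 4.93 (median 4.35) in the others. The gap between the 2 ranges was 0.61, the difference 1.40 (SE 0.333, adjusted p = 0.0194, limma). Icam2 (chromosome 11, 106377656 to 106388075, minus strand), a ligand of leukocyte integrins, read 5.19, 5.43 and 5.71 in the same order and 0.96 to 3.01 (median 1.92) elsewhere, with no overlap. Its difference was 3.57 (SE 0.419, adjusted p = 0.000172, limma). Outside set 3 Icam2 held only 0.948 to 7.03 normalized counts, a depth at which the offset of 1 understates the difference. The call of Esam ended without normal glucose replicate 1 (adjusted p = 0.0525, limma), high glucose replicate 2 (0.211) or Hsp70 replicate 2 (0.106), which are the 3 libraries of set 3, and with quantile normalization (0.0651). Over 19 alternatives it ran from 0.00708 to 0.211.

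Of the surface and secreted proteins, Emcn (endomucin; chromosome 3, 137341067 to 137432185, plus strand), an anti-adhesive sialomucin of veins and capillaries, read 7.0, 6.72 and 7.18 in normal glucose, high glucose and Hsp70 of set 3. The other libraries ran from 1.94 to 5.12, with a median of 3.57. Set 3 was 3.31 higher (SE 0.519, adjusted p = 0.00135, limma). Vwf (chromosome 6, 125546774 to 125686679, plus strand) read 4.37, 4.49 and 4.02 in set 3 and 1.15 to 3.42 elsewhere (median 2.34), a difference of 1.95 (SE 0.457, adjusted p = 0.0175, limma). In set 3 it had the lowest counts of the 10 genes, 15.3 to 21.5 normalized counts, and elsewhere it had 1.22 to 9.72. Leaving out 1 library ended the call of Vwf for normal glucose replicate 1 (0.0742) and high glucose replicate 2 (0.255), as did quantile normalization (0.0626) and sets 2 and 3 alone (0.158), all adjusted p. Over 19 alternatives it ran from 0.0155 to 0.255.

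Mmrn2 (chromosome 14, 34375465 to 34404287, plus strand), a matrix protein of the vessel wall, read 7.04, 6.97 and 6.89 in normal glucose, high glucose and Hsp70 of set 3 and 3.95 to 5.26 (median 4.65) elsewhere, a difference of 2.31 (SE 0.309, adjusted p = 0.000457, limma). Its binding partner Clec14a (chromosome 12, 58264720 to 58269290, minus strand, 1 exon) read 10.18, 10.38 and 10.20 in set 3 and 9.17 to 10.16 (median 9.79) elsewhere. The ranges were 0.02 apart, and the difference was 0.51 (95% interval 0.08 to 0.93, adjusted p = 0.158, limma). Cd93, which also binds Mmrn2, was 2.82 higher in set 3 (SE 0.252, adjusted p = 2.53e-05, limma).

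Cd34 (chromosome 1, 194938819 to 194961279, plus strand), a sialomucin that endothelial cells share with blood progenitors and many fibroblasts, was the 1 gene of the 10 that lay lower in set 3. It read 11.85, 11.74 and 11.66 in normal glucose, high glucose and Hsp70 of set 3, and 11.96 to 13.17 (median 12.14) in the other libraries, without overlap. The difference was -0.57 (95% interval -1.12 to -0.03, adjusted p = 0.23, limma). With the set as a factor both it (-0.67, adjusted p = 0.00447) and Clec14a (0.57, adjusted p = 0.00734) passed, as they did in sets 2 and 3 alone (-1.37, adjusted p = 0.00372, and 1.00, adjusted p = 0.00842). An antisense gene, Gm16897, shares 148 of the 7290 exon bases of Cd34, and whether counting used the strand is not stated, so their reads may not be told apart. By overlap alone, 9 of the 10 genes lay wholly higher in set 3 and 1 wholly lower, against 8.14% and 3.85% of all genes tested. The 9 include Cldn5, which could not overlap.

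**Figure D2:**
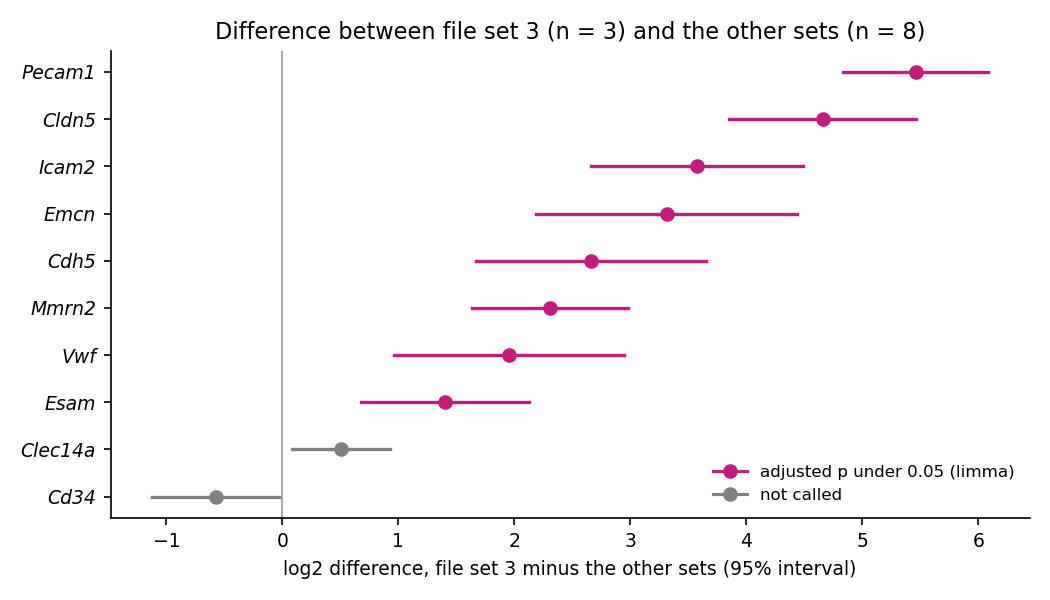
Difference between set 3 (3 libraries) and the other sets (8 libraries) for each gene, in log2 units, with the 95% interval from limma. Pecam1 has the highest difference, 5.46, Clec14a (0.51) and Cd34 (-0.57) did not pass, and the value of Cldn5 is set against libraries in which it was not detected.

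The 3 other sets also differed among themselves, and these values were not tested. Cd34 stood at 12.97 and 13.17 in the high glucose and Hsp70 libraries of set 2, above the 11.96 to 12.29 of sets 4 and 5. Cdh5 was also above sets 4 and 5 in set 2, at 7.18 and 8.26 against 5.68 to 6.79. Mmrn2 and Clec14a went the other way: in set 2 they read 4.22 and 3.95, and 9.42 and 9.17, under every library of sets 4 and 5. Emcn averaged 2.62 in set 2, 4.52 in set 4 and 3.46 in set 5, whereas Pecam1 averaged 3.41, 3.75 and 3.34 in the same order. Sets 2, 4 and 5 thus stood in a different order from gene to gene.

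Levels of different genes were compared per kilobase of exon, with exon lengths from GENCODE M21. In set 3 the medians, in normalized counts per kb, ran from Cd34 (468) and Clec14a (258) through Cdh5 (167), Pecam1 (82.8) and Mmrn2 (31.4) to Emcn (23.4), Icam2 (22.1), Cldn5 (18.5), Esam (17.7) and Vwf (1.22). From Emcn to Esam each gene overlapped its neighbour in the order, and all other neighbours were separate. Outside set 3 the order began with the same genes, Cd34 (620), Clec14a (194) and Cdh5 (23.3), each separate from the next. Then came Esam (6.75), Mmrn2 (6.08), Emcn (2.04), Pecam1 (1.73), Icam2 (1.46) and Vwf (0.258 normalized counts per kb), each overlapping its neighbour, with Cldn5 undetected. Cd34 and Clec14a together made up 66.3% to 70.5% of the summed level per kb of the 10 genes in set 3 and 94.1% to 96.2% in the other libraries.

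**Figure D3:**
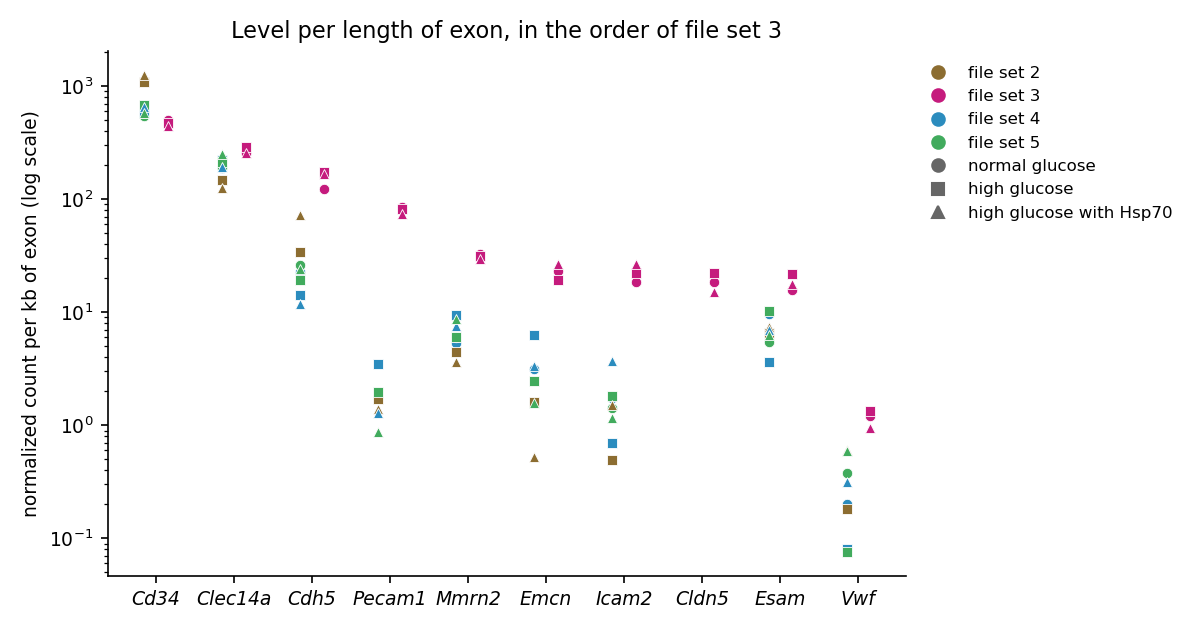
Normalized counts per kilobase of exon on a log scale, for each gene and library, with genes ordered by their median in set 3. Colours give the set and shapes the culture condition, with set 3 to the right within a gene, and the libraries in which Cldn5 was undetected are not drawn. Pecam1 falls from a median of 82.8 in set 3 to 1.73 outside it, and Cd34 does not.

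Other genes of these cells were read from lists fixed by symbol. Of 20 other endothelial markers, 13 rose in set 3 and none fell by limma, beside 6.04% and 2.38% of all genes. Of the 20, 3 met the filter only through set 3, the called Sox17 and Sox18 among them. That leaves 11 called higher of the 17 that met it outside set 3, beside 5.37% of all genes that did. Of the first 4 in the list, the receptor genes Tie1 (5.67, SE 0.517, adjusted p = 3.02e-05) and Kdr (3.88, SE 0.442, adjusted p = 0.000142) rose, while Tek (-0.49, adjusted p = 0.457) and Flt1 (-0.46, adjusted p = 0.317) did not pass. Of 14 endothelial surface and leukocyte adhesion genes, 4 rose (Cd93, Podxl, Mcam at 3.78 and Stab1 at 3.38) and 3 fell. Those that fell were the cytokine-induced adhesion genes Vcam1 (-0.93, adjusted p = 0.00119), Sele (-1.71, adjusted p = 0.00019) and Selp (-1.65, adjusted p = 0.00154), which were the 2nd to 4th of the list, and the first, Icam1, gave -0.67 (adjusted p = 0.0787).

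Junction genes that many cell types share gave no call beside those of Cdh5 and Cldn5. Of 15 such genes of adherens and tight junctions limma called 0, with a median difference of -0.07, and 4 had an unadjusted p under 0.05, beside 19.5% of all genes. The catenins that bind cadherin tails gave -0.37 (Ctnnb1), -0.07 (Ctnna1) and -0.30 (Ctnnd1), and N-cadherin (Cdh2) gave -0.60 (adjusted p = 0.0925). Of 16 other claudins 11 were tested and 1 passed, Cldn11 (2.36 higher, adjusted p = 4.57e-05), named here after its value was seen. Cldn1, Cldn2, Cldn3 and Cldn4, the first of that list, gave 1.00, 0.70, 1.33 and -0.47 and did not pass.

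The relatives of single members split too. In the family of Clec14a and the multimerins, Cd93 was the 1 of 6 that passed, while Thbd (-0.48), Cd248 (-0.80) and Mmrn1 (0.82) did not. Among 6 relatives of Cd34 and other sialomucins 3 rose: Podxl (2.92, adjusted p = 0.00116), Selplg (2.95) and Spn (2.37), the last 2 known from leukocytes. Podxl2 (-0.35), Cd164 (-0.53) and Cd164l2 (0.31) did not pass. Of 10 genes for the contents and release of Weibel-Palade bodies, which store Vwf, 2 rose and 1 fell. Angpt2, a ligand stored there, was 1.87 higher (adjusted p = 0.00023), Rab3d was 0.66 higher (adjusted p = 0.0231) and Selp fell by 1.65, while Edn1 (0.53) and Cd63 (0.02) did not pass.

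Markers of other cell types moved with set 3 as well. Of 12 tested macrophage and other leukocyte markers 10 rose, or 9 of 11 without Tyrobp, which met the filter only through set 3, and their summed level was 5343 to 6197 normalized counts in set 3 against 589 to 1015 elsewhere. Ptprc, the pan-leukocyte surface protein, gave 4.74 and the macrophage gene Adgre1 6.33 (adjusted p = 0.000213 and 1.14e-05), Csf1r gave 0.99 (adjusted p = 0.0852) and Cd68 2.31. Pecam1, Icam2 and Esam are known from leukocytes or platelets also. Of 5 tested platelet genes Pf4 (6.28) and Ppbp (1.85) were called higher, though both met the filter only through set 3, whereas Itga2b (0.22) and Gp1ba (0.10) did not pass and Gp9, a defining platelet gene, ran from 0 to 0.89 in set 3 and from 0 to 0.0048 elsewhere.

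Schwann cell and nerve genes rose in 5 of 8 cases, among them Sox10 (3.86), Cdh19 (2.42), Erbb3 (4.03) and Ngfr (2.55), with a summed level of 3694 to 7544 normalized counts in set 3 against 962 to 2530. Fibroblast genes rose in 4 of 10, with Dcn at 1.90, Lum at 2.24, Thy1 at 1.28 and Pi16 at 1.45, but Col1a1 at -0.10 and Pdgfra at 0.06 did not pass, and their sum was 337575 to 413614 normalized counts against 164852 to 268076. Of 6 tested pericyte genes 3 rose and 1 fell, with Rgs5 at 3.32, Kcnj8 at 1.98, Abcc9 at 1.44 and Cspg4 at -1.55, and Pdgfrb at 0.15 did not pass; their sum was 8052 to 9003 normalized counts against 5768 to 7120. Smooth muscle genes rose in 2 of 8, Myh11 (1.82) and Des (4.79), while Acta2 (0.31), Cnn1 (0.05) and Tagln (0.57) did not pass, with sums of 4669 to 7170 against 3425 to 5787 normalized counts. Of 6 lymphatic genes Reln (3.01) rose, and Prox1 (0.96), Lyve1 (1.30), Flt4 (0.68) and Mmrn1 (0.82) did not pass. Limma called 0 of 5 tested epithelial genes, with 0 at an unadjusted p under 0.05: Epcam gave 0.61, Cdh1 0.81 and Krt18 -0.24, and Krt8 was too low to test. The part of these other markers in the differences of the 10 genes was not tested.

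**Figure D4:**
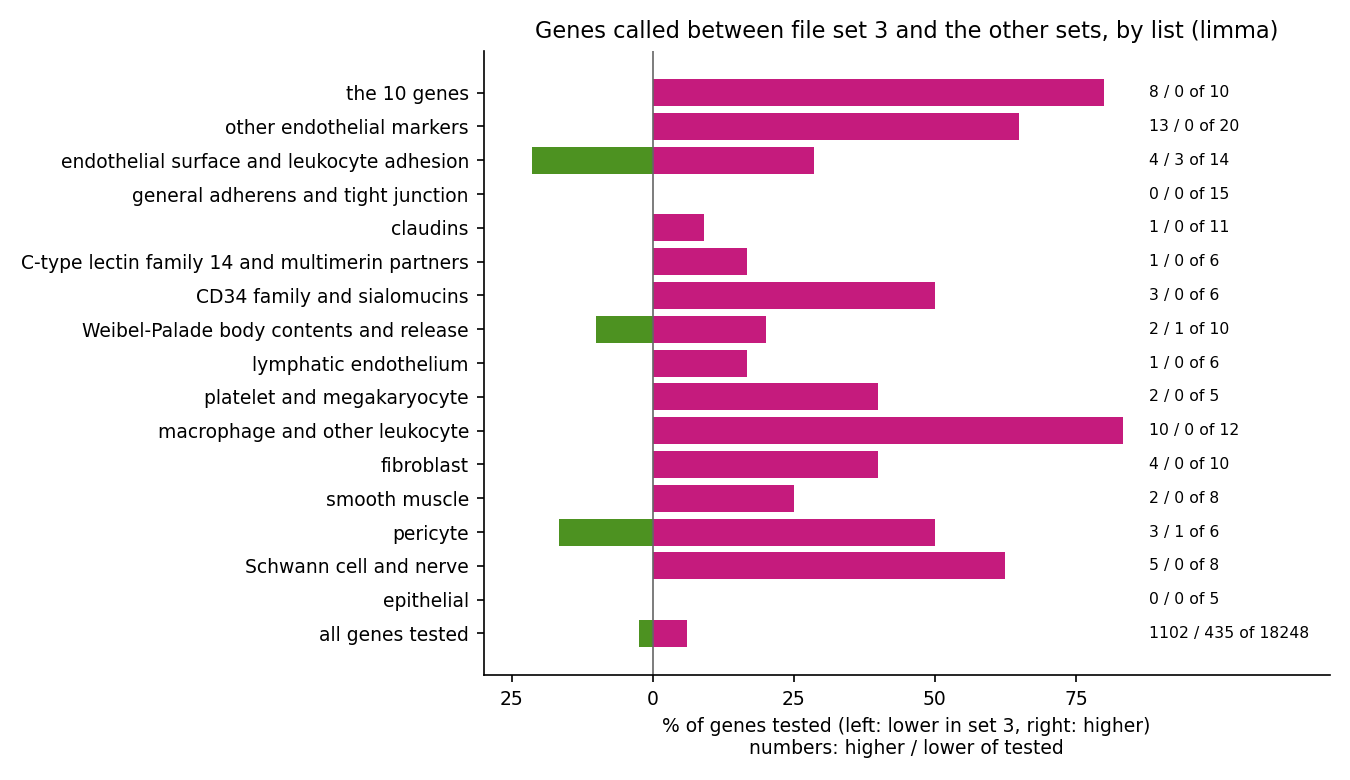
Share of the tested genes of each list that limma called higher (right) or lower (left) in set 3, with the counts printed beside each bar. The bars include genes that met the filter only through set 3. These are 1 of the 8 called among the 10 genes and 2 of the 13 called among other endothelial markers. They are also 1 of the 10 called in the leukocyte list and the 2 called platelet genes. Over all genes they are 149 of the 1102 called higher. The general junction and epithelial lists have no bar.

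The genes whose profiles lay closest to each member were found by the mean absolute distance between centred log2 profiles over the 11 libraries, leaving out predicted genes. For Pecam1 they were Bcl2a1a, Bcl2a1b and Tyrobp (0.29, 0.34 and 0.36), of which the first pair are near-identical copies whose reads may have been split. For Cldn5 they were the endothelial transcription factor gene Sox18 (0.18), the lysozyme gene Lyz2 (0.23) and the chemokine gene Ccl4 (0.27). Cdh5 lay closest to Kcnk10 (0.31), Il13ra2 (0.32) and Esm1 (0.35), Icam2 to Luzp2 (0.29), Mt3 (0.31) and Alpl (0.34), and Emcn to Trim55 (0.34) and Cyp2f2 (0.39). Mmrn2 lay closest to the fibroblast matrix gene Lum (0.18), Cxcl5 (0.20) and Tnfsf13b (0.20), and Esam to Slc35g2 (0.22), Slc22a4 (0.24) and Prkch (0.24). Vwf lay closest to Gimap8 (0.30), Atp6v1c2 (0.31) and Nup210 (0.41). Clec14a had Dram1 (0.09), Tshz2 (0.10) and Steap4 (0.10), and Cd34 had Rab3b (0.10), Epha2 (0.11) and Adam8 (0.13). Cldn5 was not detected in 8 of the 11 libraries, so its distances rest on a floor there. Several neighbours were near the floor outside set 3 too. There Bcl2a1a ran from 0 to 2.20, Bcl2a1b from 0 to 0.96 and Tyrobp from 0 to 1.22. Sox18 ran from 0 to 1.14, Ccl4 from 0 to 1.01 and Trim55 from 0 to 1.74. Bcl2a1b, Tyrobp and Sox18 are among those that met the filter only through set 3. For such genes a small distance says mainly that the step to set 3 was of like size. That step also weighs in the distances of neighbours detected in every library. Lum was 2.24 higher in set 3 beside 2.31 for Mmrn2, and Alpl 3.56 beside 3.57 for Icam2, while Esm1 (2.00) lay further from Cdh5 (2.66).

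The second comparison asked what high glucose did to these genes. By limma 0 of the 10 genes were called, and 0% of all 18248 genes, with 0 of the 10 and 1.01% of all at an unadjusted p under 0.05. Errors were wide without a term for the set: Pecam1 gave -0.21 with an SE of 1.84, and with the set as a block 0.27 (95% interval -0.43 to 0.97). Set 2 has no normal glucose library, so set 3 weighs more in the normal glucose mean than in that of high glucose. Without the block, the fit therefore carries part of the set 3 difference. With the block 0 of 10 and 0% of all genes were called, with 0 of the 10 and 3.49% of all at an unadjusted p under 0.05. Clec14a was the 1 gene that lay higher in high glucose in all 3 sets, by 0.19, 0.26 and 0.13 in sets 3, 4 and 5, and no gene lay lower in all 3. The same pattern held for 11.3% of all genes on the higher side and 14.3% on the lower side. For Clec14a the block gave 0.22 (95% interval -0.06 to 0.50), and for Cd34 0.04 (-0.26 to 0.34).

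Within sets the junction genes went in different directions in high glucose. Cdh5 differed from normal glucose by 0.51, -0.65 and -0.43 in sets 3, 4 and 5, and Pecam1 by -0.06, 0.95 and 0.12. Esam gave 0.46, -1.33 and 0.87, and Icam2 0.24, -0.87 and 0.27, each with set 4 on the other side of 0. Emcn (-0.27, 0.94 and 0.55), Mmrn2 (-0.07, 0.77 and 0.01) and Vwf (0.13, -0.89 and -1.66) also changed sign between the sets. In set 3, where Cldn5 was detected, it was 0.25 higher in high glucose, a pair of single libraries with no replicate.

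The third comparison asked what Hsp70 did in high glucose. Limma called 0 of the 10 genes and 0% of all genes, with 0 of the 10 and 0.745% of all at an unadjusted p under 0.05; with the set as a block it also called 0 of 10 and 0% of all. At an unadjusted p under 0.05 the block gave 2 of the 10 genes, Vwf and Pecam1, beside 1.67% of all genes. Vwf stood at 3.42, 4.02, 2.59 and 3.39 with Hsp70 and at 1.97, 4.49, 1.20 and 1.15 without it in sets 2 to 5. It was higher with Hsp70 in sets 2, 4 and 5, by 1.45, 1.39 and 2.23, and lower in set 3 (-0.47), and the fit with the block gave 1.15 (SE 0.455, adjusted p = 0.999, limma). Without the block the difference was also 1.15, and it became 1.92 without high glucose replicate 2, the library of set 3, while leaving out any other library gave 0.80 to 1.41. Outside set 3 these levels are 1.22 to 2.92 normalized counts in high glucose and 5.02 to 9.72 with Hsp70.

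Pecam1 was lower with Hsp70 in all 4 sets, with differences of -0.28, -0.16, -1.33 and -1.05 in sets 2 to 5, and the fit with the block gave -0.71 (SE 0.278, adjusted p = 0.999, limma). It stood at 3.27, 8.86, 3.18 and 2.68 with Hsp70 and at 3.55, 9.01, 4.51 and 3.73 without it. In sets 4 and 5 these levels are 8.04 and 5.41 normalized counts with Hsp70, against 21.7 and 12.3 without it. Lower in all 4 sets were 4.42% of all genes. No gene of the 10 lay higher in all 4, as 3.89% of all genes did. Cdh5 gave 1.07, -0.06, -0.25 and 0.32 in sets 2 to 5 (0.27 with the block, 95% interval -0.33 to 0.87), and Emcn gave -1.35, 0.45, -0.87 and -0.58 (-0.59, -1.32 to 0.14). Icam2 gave 0.99, 0.28, 1.78 and -0.47 (0.64, -0.30 to 1.59). The narrowest intervals were those of Clec14a, -0.10 (-0.35 to 0.16), and Cd34, 0.02 (-0.25 to 0.29). In set 3 Cldn5 stood at 4.49 with Hsp70 and 5.01 without it (-0.53), again 1 library each.

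**Figure D5:**
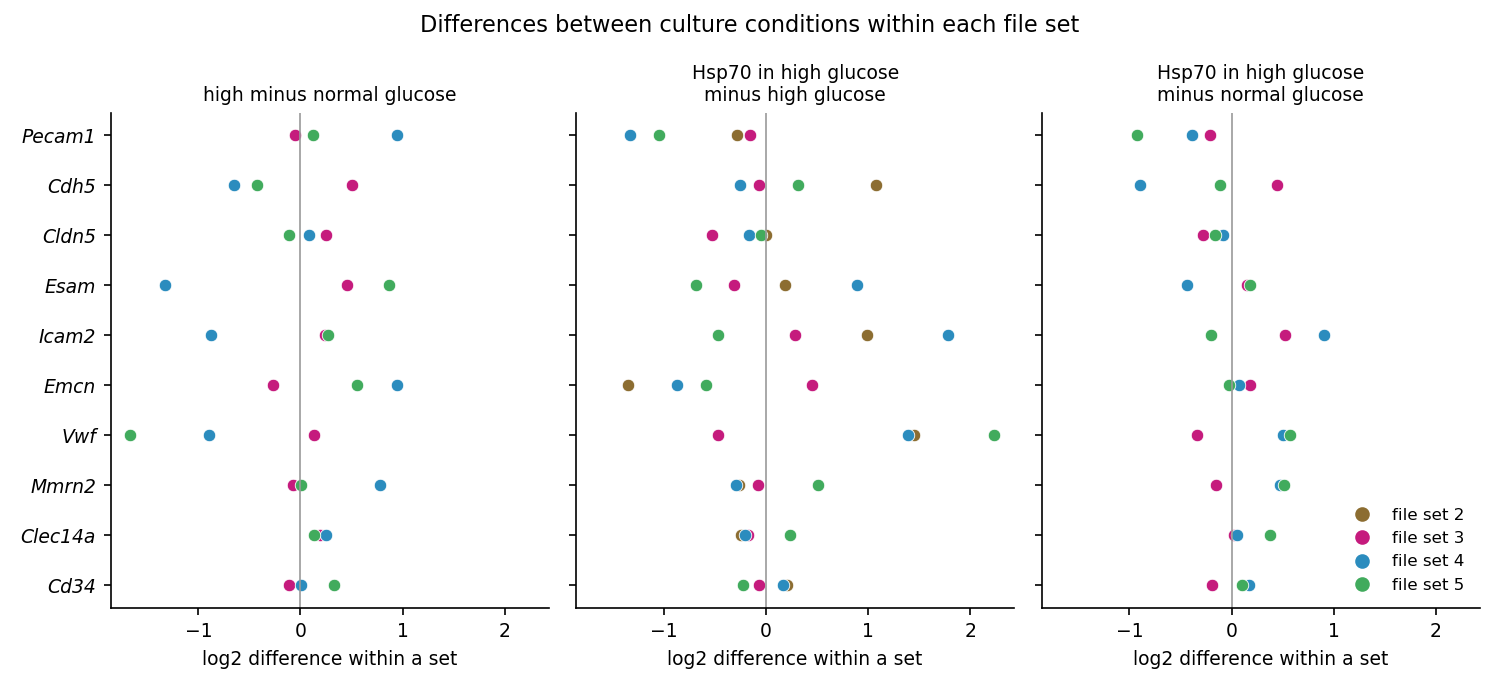
Differences between culture conditions within each set, in log2 units, with 1 point per gene and set and colours for the sets. Each point compares 2 single libraries, and the values outside set 3 for Cldn5 compare libraries in which it was not detected. Pecam1 lies below 0 in all 4 sets in the middle panel, and most genes have points on both sides of 0.

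The last comparison set Hsp70 in high glucose against normal glucose, with the same normal glucose and Hsp70 libraries as the comparisons above. Limma called 0 of the 10 genes and 0% of all, with and without the block, and 0.975% of all genes had an unadjusted p under 0.05 (3.22% with the block), 0 of the 10 among them. Pecam1 lay lower than in normal glucose, with differences of -0.21, -0.38 and -0.93 in sets 3, 4 and 5, and the block gave -0.44 (95% interval -1.14 to 0.26). Clec14a lay higher by 0.02, 0.05 and 0.37 (0.12, -0.16 to 0.41). Cldn5 was also listed lower in all 3, though detected in set 3 alone (-0.28). Lower in all 3 sets were 9.92% of all genes and higher in all 3 were 7.62%. Cdh5 gave 0.44, -0.90 and -0.11, Vwf -0.34, 0.50 and 0.57, and Mmrn2 -0.15, 0.48 and 0.51, with blocked intervals that include 0.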

How the data were processed

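RNA was taken up in Trizol, and 1.3 µg per library went into a stranded SMARTer kit, per the labels' protocols. The authors deposited 1 file of log2 values per library, which the values themselves show to be log2(normalized count + 1). Alignment and counting are known only as TopHat, edgeR and mm10, per the submitters' processing notes. The sources used here give no versions, annotation, normalization or strand setting.

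Each file held 23282 rows, and of repeated symbols the row of highest mean stayed (44 rows dropped). The 18248 symbols that reached 1 normalized count in 3 or more libraries entered the fits (R 4.3.3, limma 3.58.1, trended prior, robust variances, Benjamini-Hochberg adjusted p under 0.05). Group differences used 3 group means, and set 3 was compared with the group as a term. The fits were tested on simulated data. Positions and exon lengths came from GENCODE M21 (GRCm38, the mm10 assembly), and promoters from RefSeq.

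The genes and lists were chosen with earlier results of these data known. From each other list the first 4 genes are named. Other list genes are named where 5 or fewer passed, as examples of levels (Eng and Robo4) or for how they met the filter, all after their values were seen. For each of the 10, the 3 genes nearest in profile are named, without predicted genes. A few genes that these rules would name are not reported here. As a check of pairing, deviations from the group means were correlated across genes between libraries of a set: 0.594, 0.302 and 0.285 for normal with high glucose in sets 3, 4 and 5. Figures used matplotlib 3.10.9 in Python 3.11.15.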

Additional observations from a re-analysis of the deposited data

Results flagged for a closer look

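In groups of 4 libraries, the gap between an extreme library and its nearest neighbour was divided by the range of the group and set against Dixon's limit. Of 20 pairs of gene and group 4 passed, all of them libraries of set 3. Chance would flag about 1 in 20, but these flags restate the set 3 difference given above, and those of Cldn5 follow from its detection in set 3 alone. Pecam1 at 8.86 in Hsp70 replicate 2 had its nearest neighbour at 3.27, and Esam at 5.69 in the same library had its nearest at 4.48. Cldn5 stood at 5.01 in high glucose replicate 2 and at 4.49 in Hsp70 replicate 2, where the other 3 libraries of each group did not detect it.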

How the results depend on the processing

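Pecam1, Cdh5, Icam2, Emcn and Mmrn2 were called higher in set 3 under all 19 alternatives. Cldn5 was too, but in the main fit it met the filter only through set 3, which fixed its direction there, so its calls are set apart. None of the 10 changed direction. Over the alternatives 6 to 10 genes passed, Cldn5 included. Over all genes, 1537 were called. With the set as a factor it was 2317, in sets 2 and 3 alone 2602, and leaving out 1 library gave 722 to 2102. The lowest counts came without high glucose replicate 2 (722) or Hsp70 replicate 2 (794), both of set 3. The cause was not tested.

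In the 3 comparisons of culture conditions 0 of the 10 genes passed under any of 21 alternatives each. Over all genes leaving out 1 library gave 0 to 3 calls for Hsp70 against either other group, the 3 without Hsp70 replicate 2, and 0 for high against normal glucose. Differences that turned sign follow, none of them called. Comparisons with normal glucose that keep set 3 and lack the block carry part of the set 3 difference, as set 2 has no normal glucose library. The cause of each turn of sign was not tested. With file set as a replicate block, high against normal glucose was 0.27 for Pecam1, 0.043 for Cldn5, 0.54 for Emcn and 0.28 for Mmrn2, and with title number as a replicate block 0.34 for Pecam1, 0.077 for Cdh5, 0.0084 for Cldn5, 0.23 for Emcn, 0.0023 for Mmrn2 and -0.0303 for Clec14a. In sets 3 to 5 with the block it was 0.34 for Pecam1, 0.074 for Cldn5, 0.41 for Emcn and 0.24 for Mmrn2. Without set 3 it was 0.35 for Pecam1, 0.35 for Emcn and 0.15 for Mmrn2, and with the block as well 0.38, 0.85 and 0.45. For Hsp70 against high glucose, quantile normalization gave 0.0072 for Cldn5 and -0.025 for Cd34, and sets 3 to 5 with the block gave -0.00015 for Cdh5, -0.035 for Esam, 0.042 for Mmrn2 and -0.044 for Cd34. For Hsp70 against normal glucose the block gave -0.055 for Cdh5, 0.24 for Mmrn2 and 0.12 for Clec14a; sets 3 to 5 with it gave -0.19 for Cdh5, 0.076 for Emcn, 0.28 for Mmrn2 and 0.15 for Clec14a; without set 3 Mmrn2 was 0.13; and without set 3 and with the block Cdh5, Mmrn2 and Clec14a were -0.33, 0.43 and 0.17.

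Leaving out 1 library at a time, high against normal glucose ran from -1.48 to 1.62 for Pecam1, -0.97 to 0.56 for Cdh5, -1.60 to 1.16 for Cldn5, -0.57 to 0.26 for Esam, -1.61 to 0.45 for Icam2, -0.84 to 1.01 for Emcn, -0.68 to 0.71 for Mmrn2 and -0.13 to 0.19 for Clec14a. Hsp70 against high glucose ran from -2.16 to 0.57 for Pecam1, -0.38 to 1.03 for Cdh5, -1.30 to 1.04 for Cldn5, -0.37 to 0.46 for Esam, -0.23 to 1.64 for Icam2, -1.59 to 0.15 for Emcn, -0.58 to 0.53 for Mmrn2, 0.80 to 1.92 for Vwf, -0.27 to 0.12 for Clec14a and -0.28 to 0.25 for Cd34. Hsp70 against normal glucose ran from -2.37 to 0.91 for Pecam1, -0.59 to 0.83 for Cdh5, -1.67 to 0.98 for Cldn5, -0.49 to 0.25 for Esam, -0.85 to 1.09 for Icam2, -1.67 to 0.43 for Emcn, -0.23 to 0.90 for Vwf, -0.70 to 0.68 for Mmrn2 and -0.20 to 0.15 for Clec14a. Same-set libraries correlated at 0.0586 (Hsp70 and high glucose) and 0.0219 (Hsp70 and normal glucose) in set 4 once group means were removed. High and normal glucose of set 4 correlated at 0.302. The group means pool the sets, and that of normal glucose lacks set 2, so these values do not show which libraries are paired. Outside set 3 Icam2 held at most 7.03 and Vwf at most 9.72 normalized counts, which limits what could be detected for them. Pecam1 (5.41 to 21.7), Emcn (2.84 to 33.8) and Esam (10.4 to 29.5) were also low there. Their differences within those sets rest on few normalized counts.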
